A study of Mus musculus with 10 samples.

Results

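The genes that carry glucose through glycolysis and bring its product pyruvate into the mitochondrion were examined in CD4 T cells with and without TOX, an HMG-box protein of the nucleus. The set holds 32 genes of the 53656 in the count tables, chosen by name for their place in the pathway. They are 2 glucose transporters, 3 hexokinases, 7 genes of upper glycolysis (from glucose 6-phosphate to triose phosphate), 7 genes of lower glycolysis (from triose phosphate to pyruvate), 4 genes of lactate production and transport, 4 regulators and 5 genes of mitochondrial pyruvate entry. All 32 passed the filter on low counts and were tested.

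RNA was sequenced from 6 TOX KO and 4 TOX WT libraries of SMARTA cells, CD4 T cells with a transgenic receptor for a viral peptide that the B16-GP61 melanoma line carries. TOX KO cells (congenic label Ly5.1) were sorted as CD4+, Ly5.1+, Ly5.2-, PD1lo, LAG3lo and CD39lo. TOX WT cells (congenic label Ly5.12) were sorted as CD4+, Ly5.1+, Ly5.2+, PD1hi, LAG3hi and CD39hi. Cells of both genotypes were naive at transfer, went into B6 mice that bore B16-GP61 tumours and had been given cytoxan, and were recovered from the tumour-draining lymph node (tdLN) 11 days later. The sort gate changes with the genotype, so the 2 cannot be told apart: each comparison sets PD1lo TOX KO cells against PD1hi TOX WT cells. The kind of Tox allele, the age of the mice and the animals behind each replicate are not given in the labels, and a p-value thus speaks only of the scatter among these libraries, part of which can be technical.

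Glycolysis splits glucose into pyruvate in the cytosol and yields ATP and NADH. Pyruvate is then either reduced to lactate and exported, or carried into mitochondria and turned into acetyl-CoA by the pyruvate dehydrogenase complex. Activated T cells are known for raising glucose uptake and lactate output, a shift in which the transcription factors HIF-1 and MYC take part, while resting and memory T cells rely more on mitochondrial oxidation.

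The libraries held 36028980 to 55784453 counts in TOX KO and 31939816 to 45481478 in TOX WT. Tox, the targeted gene, was 15.3 to 68.0 CPM (read counts scaled to a common library total) in TOX KO and 170 to 357 CPM in TOX WT (-2.93 on the log2 scale, SE 0.48, adjusted p = 0.0102 by edgeR), and Pdcd1, the gene of PD1, was lower as well (-1.34, SE 0.24, adjusted p = 0.0163). Lag3 and Entpd1, the genes of the other 2 gate proteins, had log2 fold changes of 1.15 and -3.48 that did not pass the test. The 8 genes of the T cell receptor complex summed to 15402 to 30430 CPM in TOX KO and 8702 to 21293 CPM in TOX WT, and none passed the test. Markers of other cells differed between the groups. The immunoglobulin share of the counts was 0.0835 to 0.187% in TOX KO libraries, against 0.815, 7.37, 7.66 and 16.7% in TOX WT replicates 1 to 4. Of 13 B and plasma cell markers, 11 were lower in TOX KO, with sums of 1196 to 3132 CPM in TOX KO and 19251 to 86083 CPM in TOX WT. Of 14 myeloid markers, 5 were lower, with sums of 167 to 466 CPM in TOX KO and 1705 to 8001 CPM in TOX WT. No marker of either list was at 0 in all libraries of a group. Of 24 proliferation genes 8 were lower and 0 higher, with sums of 1061 to 2072 CPM in TOX KO and 2529 to 4616 CPM in TOX WT. Of 6 CD8 T and NK cell markers, Klrb1c alone passed, and it was higher in TOX KO (2.81). The other 5 had negative log2 fold changes, and the median over the 6 was -2.67. None of the 5 tested erythroid markers passed, with sums of 1.98 to 397 CPM in TOX KO and 0.342 to 56.1 CPM in TOX WT, and the 6 melanoma markers summed to at most 6.17 CPM in TOX KO and 6.93 CPM in TOX WT. TOX WT replicate 1 stood apart from the other TOX WT libraries, with the lowest immunoglobulin share of the 4. It had 14365 genes detected, against 19101 to 19775 in the other 3 and 15163 to 17304 in the TOX KO libraries.

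Promoter sequence was taken for 31 of the 32 genes from RefSeq (GRCm38.p6), as windows of 300 bases from 250 before to 50 after a transcript's start. Of their 45 windows, 20 (44.4%) held ACGTG, the core that HIF-1 is known to bind most often, on either strand, against 19.6% of all 32851 windows, and 25 (55.6%) held the related core GCGTG, against 32.4%. The letters CACGTG, the E-box that MYC is known to bind and which counts as ACGTG on both strands, were in 5 windows (11.1%), against 7.15% of all. Some genes have several windows that overlap, and a match is a description of the letters and not a measured site. Each of these cores holds the letters CG, and the members' windows and all windows were not matched for base composition. The 4 windows printed here belong to the 3 genes with the smallest p-values in the comparison below and to Ldha, the most abundant member per length. Capitals mark ACGTG and GCGTG on either strand.
Aldoc, chr11:78322823-78323122, plus strand: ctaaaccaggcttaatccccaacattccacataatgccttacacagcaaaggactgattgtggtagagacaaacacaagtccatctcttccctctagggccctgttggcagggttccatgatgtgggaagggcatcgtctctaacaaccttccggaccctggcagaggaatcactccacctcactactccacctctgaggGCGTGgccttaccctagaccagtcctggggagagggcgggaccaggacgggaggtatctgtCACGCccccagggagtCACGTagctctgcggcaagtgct
Pgk1, chrX:106186850-106187149, plus strand: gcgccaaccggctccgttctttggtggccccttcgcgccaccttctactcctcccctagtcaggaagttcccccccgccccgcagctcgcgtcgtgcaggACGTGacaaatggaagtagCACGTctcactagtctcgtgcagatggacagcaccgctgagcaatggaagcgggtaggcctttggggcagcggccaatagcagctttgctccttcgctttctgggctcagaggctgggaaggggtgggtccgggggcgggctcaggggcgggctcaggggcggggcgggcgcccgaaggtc
Tpi1, chr6:124814109-124814408, minus strand: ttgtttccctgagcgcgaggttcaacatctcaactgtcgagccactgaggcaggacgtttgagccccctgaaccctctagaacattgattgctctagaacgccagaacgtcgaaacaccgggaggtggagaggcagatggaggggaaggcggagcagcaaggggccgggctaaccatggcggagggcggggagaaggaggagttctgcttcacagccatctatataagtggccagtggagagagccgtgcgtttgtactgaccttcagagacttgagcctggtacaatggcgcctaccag
Ldha, chr7:46845554-46845853, plus strand: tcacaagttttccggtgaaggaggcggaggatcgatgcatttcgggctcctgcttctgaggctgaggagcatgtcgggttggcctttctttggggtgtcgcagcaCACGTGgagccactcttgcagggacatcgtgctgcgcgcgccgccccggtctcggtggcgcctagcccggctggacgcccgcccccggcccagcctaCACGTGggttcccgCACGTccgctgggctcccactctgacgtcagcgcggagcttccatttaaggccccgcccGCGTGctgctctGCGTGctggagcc
The Ldha window holds ACGTG at 5 strand-specific matches, 4 of them from 2 CACGTG, and GCGTG at 2. The Aldoc window holds ACGTG at 1 and GCGTG at 2, the Pgk1 window holds ACGTG at 2 and no GCGTG, and the Tpi1 window holds neither. Ldha and Aldoc each have a second window, not printed, with fewer matches: that of Ldha holds 0 ACGTG and 2 GCGTG, and that of Aldoc 0 ACGTG and 1 GCGTG.

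No member of the set passed the test between TOX KO and TOX WT. With edgeR's quasi-likelihood test and Benjamini-Hochberg adjustment over 14214 genes, 0 of the 32 were higher in TOX KO, where 0.429% of all genes were, and 0 were lower, where 2.70% of all genes were (3.13% in either direction). At an unadjusted p under 0.05, 2 members were higher (Hk1 and Pdk1, against 7.15% of all genes) and 6 were lower (Hk2, Aldoc, Tpi1, Gapdh, Pgk1 and Eno1, against 10.8% of all genes). DESeq2 called 0 higher and 3 lower (Aldoc, Tpi1 and Pgk1), against 4.31% and 7.03% of all genes, and limma-voom 0 higher and 1 lower (Aldoc), against 1.44% and 4.78%. In bulk RNA, fewer cells of a type and less RNA per cell cannot be told apart.

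The members' median log2 fold change was -0.32, beside -0.12 for all genes tested, with 12 positive and 20 negative values. They ran from -3.63 for Eno2 to 1.35 for Dlat. The standard errors had a median of 0.49 and ran from 0.19 to 2.14, and for genes with a standard error above 0.5 a 2-fold change, a log2 fold change of 1, lies within 2 standard errors of 0. Scaling the libraries to the T cell receptor complex genes moved the median of all genes to -0.92 and that of the members to -0.88, so the members stayed close to the median of all genes. Under that scaling 7 members passed as lower (Pfkp, Aldoc, Tpi1, Gapdh, Pgk1, Eno1 and Mpc1, against 13.1% of all genes) and 0 as higher, against 0.120%. With DESeq2's size factors in edgeR, Aldoc alone passed, where 0.401% of all genes were higher and 2.80% lower. Without TOX WT replicate 1 Aldoc alone passed as well, where 2.92% of all genes were higher and 7.90% lower. In library numbers 4 to 8 alone, the later numbers in the library names, Eno3 alone passed (0.842% of all genes higher and 7.18% lower), and in numbers 1 to 3 alone, with a single TOX WT library, Tpi1 alone passed (2.10% higher and 0.524% lower), each of them lower in TOX KO.

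**Figure D1:**
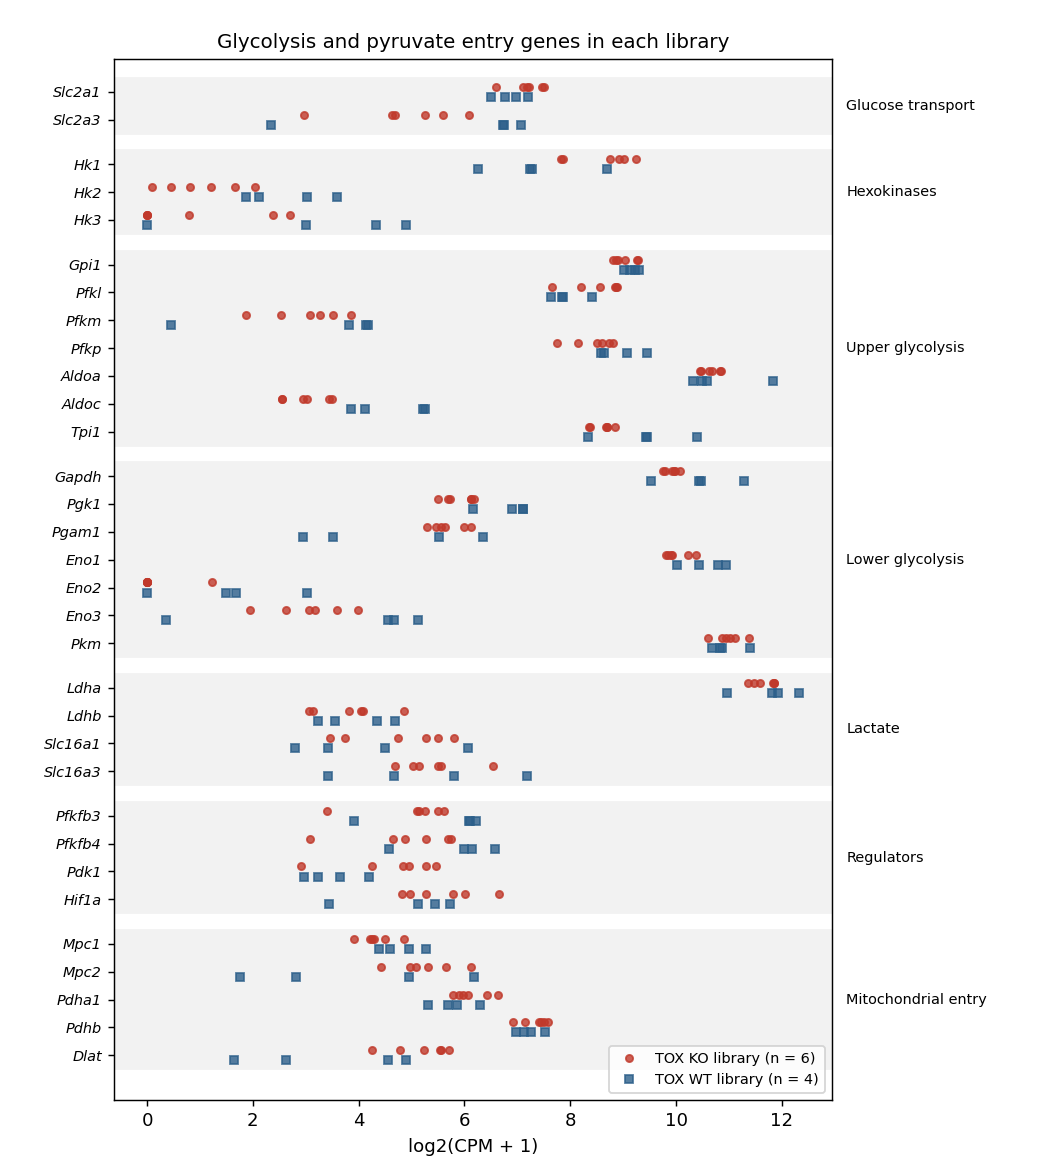
Level of each of the 32 genes in each library, as log2(CPM + 1) on the x axis, with genes on the y axis grouped by role. Red circles are the 6 TOX KO libraries and blue squares the 4 TOX WT libraries. For Aldoc alone, the TOX KO libraries (4.88 to 10.3 CPM) all lie below the TOX WT libraries (13.4 to 37.1 CPM).

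The set's RNA was spread unevenly. Per kilobase of exon, Ldha was the most abundant at 983 CPM per kb in TOX KO and 1106 in TOX WT, followed by Aldoa at 556 and 678, Pkm at 410.4 and 401, Gapdh at 234 and 365, and Eno1 at 194 and 286 CPM per kb in TOX KO and TOX WT. These 5 genes took 75.8% of the summed CPM of the set. At the other end, Eno2 stood at 0.0476 CPM per kb in TOX KO and 0.594 in TOX WT, and Hk2 at 0.217 in TOX KO and 1.01 in TOX WT. Several steps had a main gene at the RNA level in both groups: Hk1 among the hexokinases, Aldoa among the aldolases, Eno1 among the enolases and Ldha among the lactate dehydrogenases had the highest level per length in TOX KO and in TOX WT. The phosphofructokinases did not: Pfkl stood at 56.5 and Pfkp at 26.3 CPM per kb in TOX KO, against 37.4 and 37.6 CPM per kb in TOX WT.

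**Figure D2:**
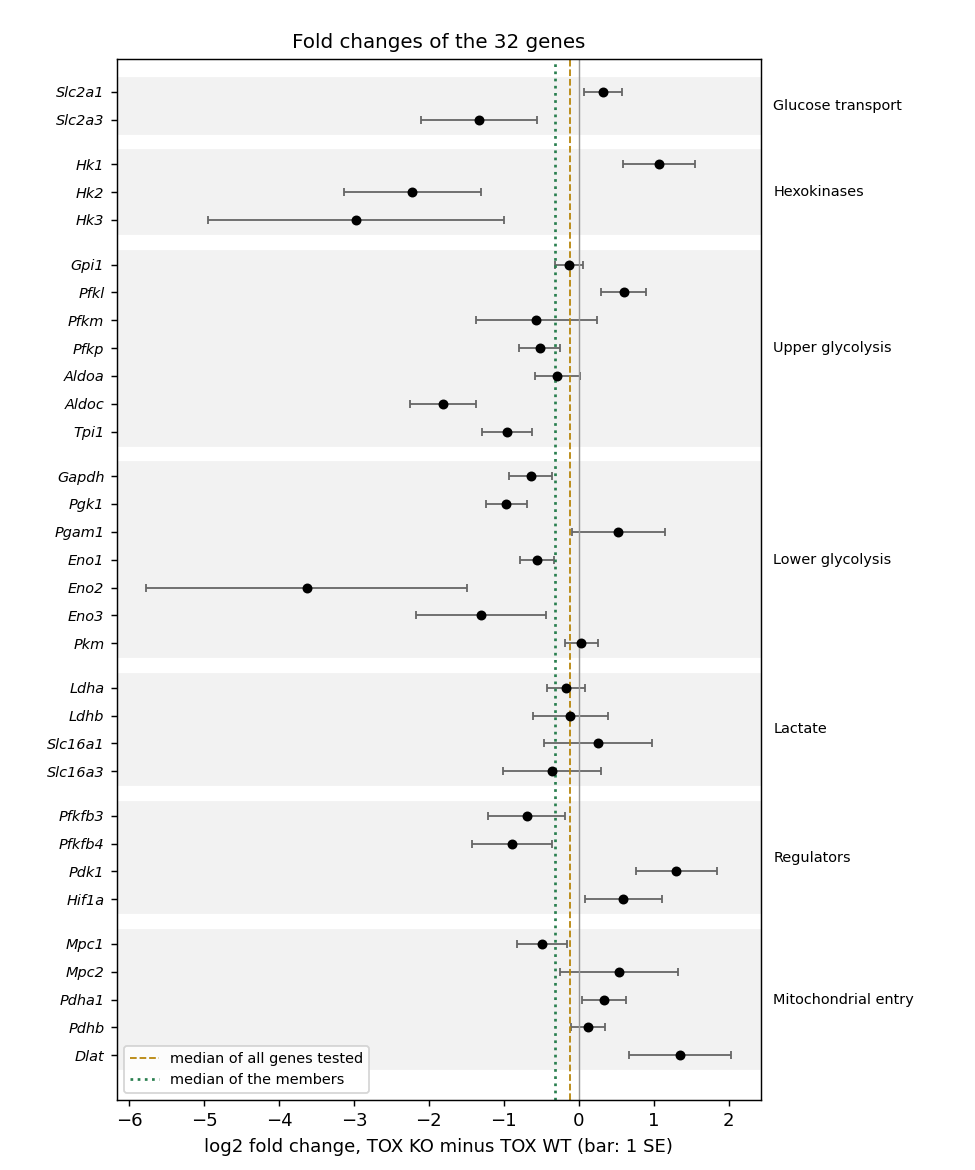
Log2 fold change of each gene, TOX KO minus TOX WT, with bars of 1 standard error from the edgeR fit. The dashed line is the median of all 14214 genes tested (-0.12) and the dotted line the median of the 32 members (-0.32). The largest departures from 0 carry the widest bars, as for Eno2 (-3.63, SE 2.14) and Hk3 (-2.98, SE 1.98).

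The glucose transporters bring glucose across the plasma membrane. Slc2a1, which encodes GLUT1, the transporter that activated T cells induce, stood at 95.8 to 181 CPM in TOX KO with a median of 147, against 90.0, 108, 146 and 125 CPM in TOX WT replicates 1 to 4. The groups overlapped through most of their range (log2 fold change 0.33, SE 0.26, adjusted p = 0.534, and -0.52 under the T cell receptor scaling). Slc2a3, which encodes GLUT3, a transporter with high affinity for glucose, stood at 6.85 to 66.9 CPM in TOX KO with a median of 30.8, against 4.11, 104, 133 and 106 CPM in TOX WT replicates 1 to 4. All 6 TOX KO libraries were below 3 of the TOX WT libraries and above TOX WT replicate 1, the lowest of the 10. The log2 fold change was -1.34 (SE 0.78, adjusted p = 0.398), and without TOX WT replicate 1 it was -1.73 (adjusted p = 0.0648).

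Hexokinases trap glucose in the cell as glucose 6-phosphate. Hk1, the form most tissues use, stood at 227 to 601 CPM in TOX KO with a median of 459, against 75.3, 154, 412 and 149 CPM in TOX WT replicates 1 to 4. All TOX KO libraries were above 3 of the TOX WT libraries, and TOX WT replicate 3 lay among them. The log2 fold change was 1.07 (SE 0.48, adjusted p = 0.277), near 0 at -0.03 under the T cell receptor scaling, and 1.72 without TOX WT replicate 3 (adjusted p = 0.0530). Hk2, the form known to be induced with T cell activation, stood at 0.0637 to 3.10 CPM in TOX KO with a median of 1.04, against 2.63, 3.34, 7.13 and 11.1 CPM in TOX WT replicates 1 to 4. 1 TOX KO library lay within the TOX WT range and the other 5 below it. These levels rest on 3 to 122 read pairs per TOX KO library and on 109, 117, 268 and 394 in TOX WT replicates 1 to 4. The log2 fold change was -2.22 (SE 0.92, adjusted p = 0.240). Within TOX WT, the libraries stood in the same order by immunoglobulin share as by Hk2, but not by the marker sums. By summed B and plasma cell markers (62426 and 49355 CPM) and myeloid markers (3178 and 2567 CPM), replicate 2 stood above replicate 3. The part of RNA from other cells in the Hk2 difference was not tested. Hk3, a form known mainly from myeloid cells, was at 0 in 3 TOX KO libraries and in TOX WT replicate 1, and reached 5.52 CPM in TOX KO and 28.8 CPM in TOX WT (-2.98, SE 1.98, adjusted p = 0.465). Myeloid markers were lower in TOX KO too (5 of 14, above). Within TOX WT the orders differed: Hk3 stood at 0, 7.05, 28.8 and 19.0 CPM in replicates 1 to 4. The myeloid markers summed to 1705, 3178, 2567 and 8001 CPM there. The part of myeloid RNA in the Hk3 values was not tested.

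The first isomerase and the phosphofructokinases follow. Gpi1, glucose 6-phosphate isomerase, had the smallest standard error, at 446 to 622 CPM in TOX KO and 515 to 630 CPM in TOX WT (-0.13, SE 0.19). Phosphofructokinase commits the sugar to glycolysis and has a liver type (Pfkl), a platelet type (Pfkp) and a muscle type (Pfkm). Pfkl stood at 200 to 470 CPM in TOX KO with a median of 418, against 231, 229, 338 and 199 CPM in TOX WT replicates 1 to 4 (0.60, SE 0.29, adjusted p = 0.318, and -0.27 under the T cell receptor scaling). Pfkp stood at 213 to 446 CPM in TOX KO with a median of 373, against 399, 696, 383 and 540 CPM in TOX WT replicates 1 to 4 (-0.52, SE 0.27, adjusted p = 0.351). The groups overlapped for both genes, with Pfkl on the higher and Pfkp on the lower side in TOX KO. Pfkm was minor, at 2.64 to 13.5 CPM in TOX KO and 0.362 to 17.04 CPM in TOX WT.

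Aldolase cleaves the sugar into trioses. Aldoa, the main form, stood at 1393 to 1841 CPM in TOX KO with a median of 1615, against 3631, 1540, 1272 and 1446 CPM in TOX WT replicates 1 to 4. TOX WT replicate 1 lay above all other libraries and the other 3 within or below the TOX KO range (-0.29, SE 0.30, adjusted p = 0.660). Aldoc (GRCm38 chromosome 11, 78322968 to 78327781, plus strand), a form best known from brain, stood at 4.88 to 10.3 CPM in TOX KO with a median of 6.97, against 37.1, 36.0, 16.4 and 13.4 CPM in TOX WT replicates 1 to 4. It was the 1 member of 32 whose groups did not overlap with TOX KO below, where 6.31% of all genes did so, and no member lay above without overlap, where 2.59% of all genes did. The values rest on 172 to 532 read pairs per TOX KO library and 477 to 1534 per TOX WT library. The log2 fold change was -1.82 (SE 0.44, adjusted p = 0.0544), just outside the threshold. DESeq2 gave an adjusted p of 1.3e-04 and limma-voom 0.0496, and leaving out single libraries moved the edgeR value between 0.0427 and 0.199. Among TOX WT libraries Aldoc was highest in replicate 1, which had the lowest immunoglobulin share, and lowest in replicate 4, which had the highest. The part of RNA from other cells in the Aldoc difference was not tested.

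Triose phosphate isomerase and the steps of lower glycolysis held 4 of the 8 genes with an unadjusted p under 0.05 (Tpi1, Gapdh, Pgk1 and Eno1). Tpi1, the isomerase, stood at 326 to 460 CPM in TOX KO with a median of 410.3, against 1339, 701, 321 and 688 CPM in TOX WT replicates 1 to 4 (-0.96, SE 0.33, adjusted p = 0.164). Gapdh, which makes NADH, stood at 864 to 1079 CPM in TOX KO with a median of 985, against 2507, 1379, 738 and 1410 CPM in TOX WT replicates 1 to 4 (-0.64, SE 0.29, adjusted p = 0.277). Both genes had the same shape: TOX WT replicates 1, 2 and 4 above every TOX KO library and TOX WT replicate 3 below. Pgk1 (GRCm38 chromosome X, 106187100 to 106203699, plus strand), which makes ATP, stood at 44.2 to 71.3 CPM in TOX KO with a median of 60.2, against 137, 119, 70.5 and 137 CPM in TOX WT replicates 1 to 4. TOX WT replicate 3 again lay in the TOX KO range and the other TOX WT libraries above it (-0.97, SE 0.28, adjusted p = 0.0977). Without TOX WT replicate 3, Pgk1 (-1.14, adjusted p = 0.0355), Tpi1 (-1.21, adjusted p = 0.0311) and Aldoc (-1.97, adjusted p = 0.0427) passed as lower in TOX KO, 3 of 32 members where 2.09% of all genes were higher and 2.80% lower.

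Pgam1, phosphoglycerate mutase, ran otherwise, at 38.3 to 68.7 CPM in TOX KO with a median of 47.4, against 80.3, 6.73, 44.8 and 10.4 CPM in TOX WT replicates 1 to 4 (0.53, SE 0.62, and -0.12 under the T cell receptor scaling). The TOX WT libraries lay on both sides of the TOX KO range. Enolase makes phosphoenolpyruvate. Eno1, the main form, stood at 891 to 1330 CPM in TOX KO with a median of 961, against 1957, 1375, 1033 and 1781 CPM in TOX WT replicates 1 to 4 (-0.56, SE 0.23, adjusted p = 0.238). Eno3, a form best known from muscle, stood at 2.85 to 14.8 CPM in TOX KO and at 0.290, 24.6, 22.5 and 33.7 CPM in TOX WT replicates 1 to 4, so that the TOX WT libraries other than replicate 1 were above all TOX KO libraries (-1.31, SE 0.87, adjusted p = 0.465). Eno2, best known from neurons, was at 0 in 5 of the 6 TOX KO libraries and in TOX WT replicate 1. Pkm, pyruvate kinase, which closes glycolysis, stood at 1551 to 2652 CPM in TOX KO with a median of 2018, against 2702, 1648, 1820 and 1856 CPM in TOX WT replicates 1 to 4. The ranges nearly coincided (0.03, SE 0.22, adjusted p = 0.952, and -0.68 under the T cell receptor scaling). Gene counts do not separate the PKM1 and PKM2 splice forms.

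Lactate dehydrogenase reduces pyruvate and restores NAD+. Ldha, its main gene here, stood at 2621 to 3686 CPM in TOX KO with a median of 3355, against 5149, 3618, 2004 and 3874 CPM in TOX WT replicates 1 to 4. The TOX WT libraries spanned the whole TOX KO range (-0.17, SE 0.25, adjusted p = 0.764). Ldhb was far lower, at 7.35 to 28.0 CPM in TOX KO and 8.44 to 24.6 CPM in TOX WT (-0.11, SE 0.50). The monocarboxylate transporters Slc16a1 (MCT1) and Slc16a3 (MCT4) carry lactate across the membrane. Slc16a1 stood at 10.0 to 54.9 CPM in TOX KO and at 65.9, 5.90, 21.5 and 9.66 CPM in TOX WT replicates 1 to 4 (0.26, SE 0.72, and -0.35 under the T cell receptor scaling). Slc16a3 stood at 24.9 to 91.9 CPM in TOX KO and at 143, 9.73, 54.6 and 24.5 CPM in TOX WT replicates 1 to 4 (-0.36, SE 0.65). For both, TOX WT replicate 1 was the highest library and replicate 2 the lowest, so the spread within TOX WT exceeded the difference between the groups.

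Among the regulators, Pfkfb3 and Pfkfb4 make fructose 2,6-bisphosphate, which activates phosphofructokinase. Pfkfb4 stood at 7.41 to 52.9 CPM in TOX KO with a median of 33.0, against 22.8, 62.5, 69.7 and 94.0 CPM in TOX WT replicates 1 to 4 (-0.89, SE 0.53, adjusted p = 0.414). Pfkfb3 stood at 9.62 to 47.9 CPM in TOX KO and at 14.1, 73.8, 67.6 and 67.1 CPM in TOX WT replicates 1 to 4 (-0.70, SE 0.52, adjusted p = 0.515). For both genes the TOX WT libraries other than replicate 1 were above every TOX KO library. Pdk1, a kinase that switches pyruvate dehydrogenase off, stood at 6.52 to 42.9 CPM in TOX KO with a median of 28.7, against 6.86, 11.5, 17.3 and 8.37 CPM in TOX WT replicates 1 to 4. 1 TOX KO library was the lowest of the 10, and the other 5 exceeded every TOX WT library (1.30, SE 0.54, adjusted p = 0.244). Hif1a, the oxygen-regulated subunit of HIF-1, stood at 27.1 to 99.4 CPM in TOX KO and 9.88 to 51.7 CPM in TOX WT, with overlap (0.60, SE 0.52, adjusted p = 0.584, and -0.28 under the T cell receptor scaling).

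Pyruvate enters mitochondria through a carrier of Mpc1 and Mpc2 and is oxidised by pyruvate dehydrogenase, whose E1 subunits are encoded by Pdha1 and Pdhb and its E2 subunit by Dlat. Pdhb stood at 120 to 190 CPM in TOX KO with a median of 171, against 182, 124, 153 and 138 CPM in TOX WT replicates 1 to 4 (0.12, SE 0.23, adjusted p = 0.811, and -0.71 under the T cell receptor scaling). Dlat stood at 18.1 to 51.2 CPM in TOX KO with a median of 41.0, against 22.4, 2.11, 28.9 and 5.18 CPM in TOX WT replicates 1 to 4. TOX WT replicates 2 and 4 lay below every TOX KO library and the other pair within their range (1.35, SE 0.68, adjusted p = 0.332). Mpc2 had the same low pair, at 20.5 to 68.3 CPM in TOX KO, against 71.9, 2.37, 30.1 and 6.00 CPM in TOX WT replicates 1 to 4 (0.54, SE 0.79, and -0.06 under the T cell receptor scaling). Mpc1 stood at 14.0 to 28.1 CPM in TOX KO and 19.8 to 37.9 CPM in TOX WT (-0.49, SE 0.34), and Pdha1 at 54.3 to 98.5 CPM in TOX KO and 38.6 to 77.5 CPM in TOX WT (0.34, SE 0.30, and -0.62 under the T cell receptor scaling).

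**Figure D3:**
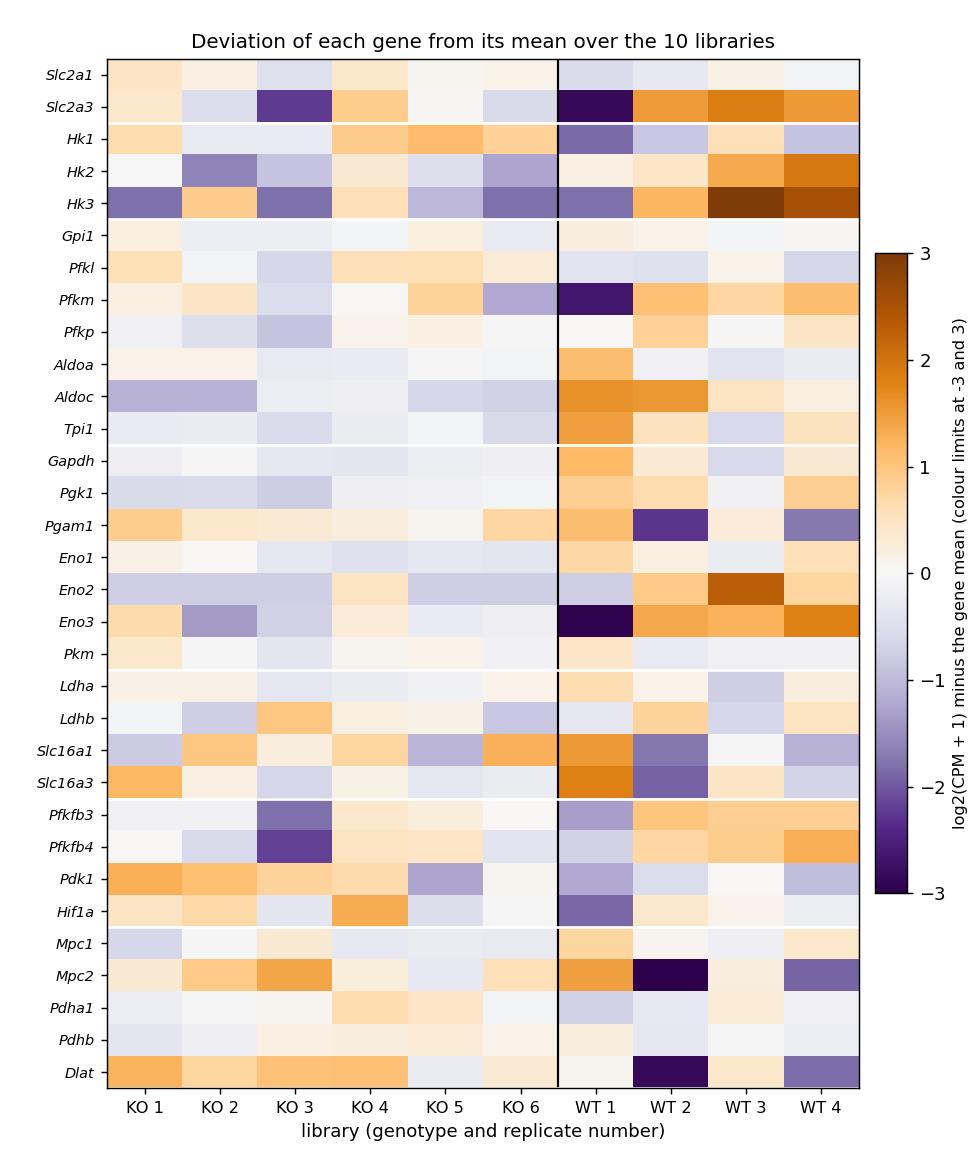
Deviation of each gene from its own mean over the 10 libraries, in log2(CPM + 1), with TOX KO libraries left of the line and TOX WT libraries right of it. Orange is above and purple below the mean. TOX WT replicate 1 is the highest library for 13 of the 32 genes, and TOX WT replicates 2 and 4 are both the lowest libraries for 5.

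Much of the variation lay within TOX WT, and some of it followed the library numbers across genotypes. Over all genes tested, the deviations of TOX WT replicate 1 from its group's mean correlated with those of TOX KO replicates 1 to 3 (r = 0.40 to 0.47), all of them in library numbers 1 to 3, and inversely with those of TOX KO replicates 4 to 6 (r = -0.52 to -0.42). TOX KO replicates 1 to 3 and 4 to 6 also deviated in opposite directions (r = -0.65 to -0.53), part of which follows from centring each group on its own mean. TOX WT replicate 1 was the highest of the 10 libraries for 13 of the 32 members (40.6%), where it was the highest for 22.3% of all genes tested, and the lowest for 7 (21.9%, against 22.4% of all genes). The 13 include the abundant Ldha, Pkm, Aldoa, Eno1 and Gapdh, and the 7 include Slc2a1, Slc2a3, Hk1 and Hif1a. TOX WT replicates 2 and 4 were both below all other libraries for 5 members (Pgam1, Slc16a1, Slc16a3, Mpc2 and Dlat; 15.6%, against 15.2% of all genes). Summed over the 32 genes, the level was 9608 to 13730 CPM in TOX KO and 19600, 12805, 9915 and 13469 CPM in TOX WT replicates 1 to 4, so that TOX WT replicate 1 was above and the other 3 within the TOX KO range.

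A ratio of 2 genes in a library does not depend on how the libraries are scaled. The log2 ratio of counts per kb, with 0.5 added to each count, was compared for 8 pairs of related genes by a two-sided exact permutation test over all 210 assignments of the 10 libraries, with Benjamini-Hochberg adjustment over the 8. The pairs were taken from the members, which were chosen with earlier results of these data known, and Hk3, Pfkm and Eno2 were in none. For 3 pairs the test passed and the groups did not overlap. Because the libraries also vary by number, the genotype was then permuted within numbers 1 to 3 and within 4 to 8, with the set as a term, a test chosen after the data were seen. Its 80 assignments allow no p below 0.0125, and none of the 3 calls held in it: the exact permutation test gave adjusted p = 0.0667 for Hk2/Hk1, 0.05 for Pfkl/Pfkp and 0.05 for Aldoa/Aldoc, at the threshold and not under it, although these last had the smallest p possible.

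Hk2 relative to Hk1 was lower in TOX KO: the log2 ratio was -11.06 to -6.85 in TOX KO with a median of -8.02, against -4.32, -5.01, -5.33 and -3.23 in TOX WT replicates 1 to 4. The difference of the means was -4.01 (-8.48 ± 1.65 in TOX KO, SD, n = 6, and -4.47 ± 0.93 in TOX WT, SD, n = 4, exact permutation p = 0.00476, the smallest that 210 assignments can give, adjusted p = 0.0190). The lowest ratio rests on 3 read pairs of Hk2 in TOX KO replicate 2, without which the difference was -3.49 (adjusted p = 0.0212), and without TOX WT replicate 4 the call was lost (-3.60, adjusted p = 0.0635). The difference was -4.32 within library numbers 1 to 3 and -3.81 within 4 to 8.

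Pfkl relative to Pfkp was higher in TOX KO: 0.91 to 1.37 with a median of 1.07, against 0.22, -0.60, 0.83 and -0.43 in TOX WT replicates 1 to 4. The difference was 1.08 (1.09 ± 0.16 in TOX KO, SD, n = 6, and 0.0035 ± 0.65 in TOX WT, SD, n = 4, exact permutation p = 0.00476, again the smallest possible, adjusted p = 0.0190), and the call held without any 1 library. The difference was 0.90 within library numbers 1 to 3 and 1.12 within 4 to 8. TOX WT replicate 3 came closest to the TOX KO range. Pfkp shares 748 exonic bases with Pitrm1 on the other strand, and read pairs there were assigned to neither gene.

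Aldoa relative to Aldoc was higher in TOX KO: 7.26 to 8.72 with a median of 8.02, against 6.78, 5.58, 6.44 and 6.91 in TOX WT replicates 1 to 4. The difference was 1.58 (8.01 ± 0.64 in TOX KO, SD, n = 6, and 6.43 ± 0.60 in TOX WT, SD, n = 4, exact permutation p = 0.00952, adjusted p = 0.0254). Without TOX WT replicate 2 the call was lost (1.30, adjusted p = 0.0952). The difference was 1.47 within library numbers 1 to 3 and 1.46 within 4 to 8. Hk1, Pfkl and Aldoa thus stood higher relative to their partners in TOX KO than in TOX WT, though none of these calls held within the library sets. Hk1 and Aldoa were by far the main form of their pairs per length in both groups. Hk1 stood at 48.7 and 23.2 CPM per kb in TOX KO and TOX WT, against 0.217 and 1.01 for Hk2. Aldoa stood at 556 and 678, against 2.24 and 7.89 for Aldoc. For Pfkl and Pfkp the TOX WT mean ratio was near 0, that is, near equal levels per length.

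The other 5 ratios did not pass. The differences were 1.15 for Slc2a1 to Slc2a3 (adjusted p = 0.419), 0.03 for Ldha to Ldhb (0.962), -0.45 for Slc16a3 to Slc16a1 (0.718), 0.37 for Pfkfb3 to Pfkfb4 (0.324) and -0.27 for Eno1 to Eno3 (0.962) by the same exact permutation test. Slc2a1 to Slc2a3 turned on a single library: TOX KO ran from 2.45 to 4.85, against 5.50, 1.10, 1.18 and 1.29 in TOX WT replicates 1 to 4. Without TOX WT replicate 1 the difference was 2.23 (exact permutation test, adjusted p = 0.0238). The Eno1 to Eno3 difference turned its sign without that library, to 1.48 (adjusted p = 0.0571). The part of RNA from B and myeloid cells in these ratios was not tested.

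**Figure D4:**
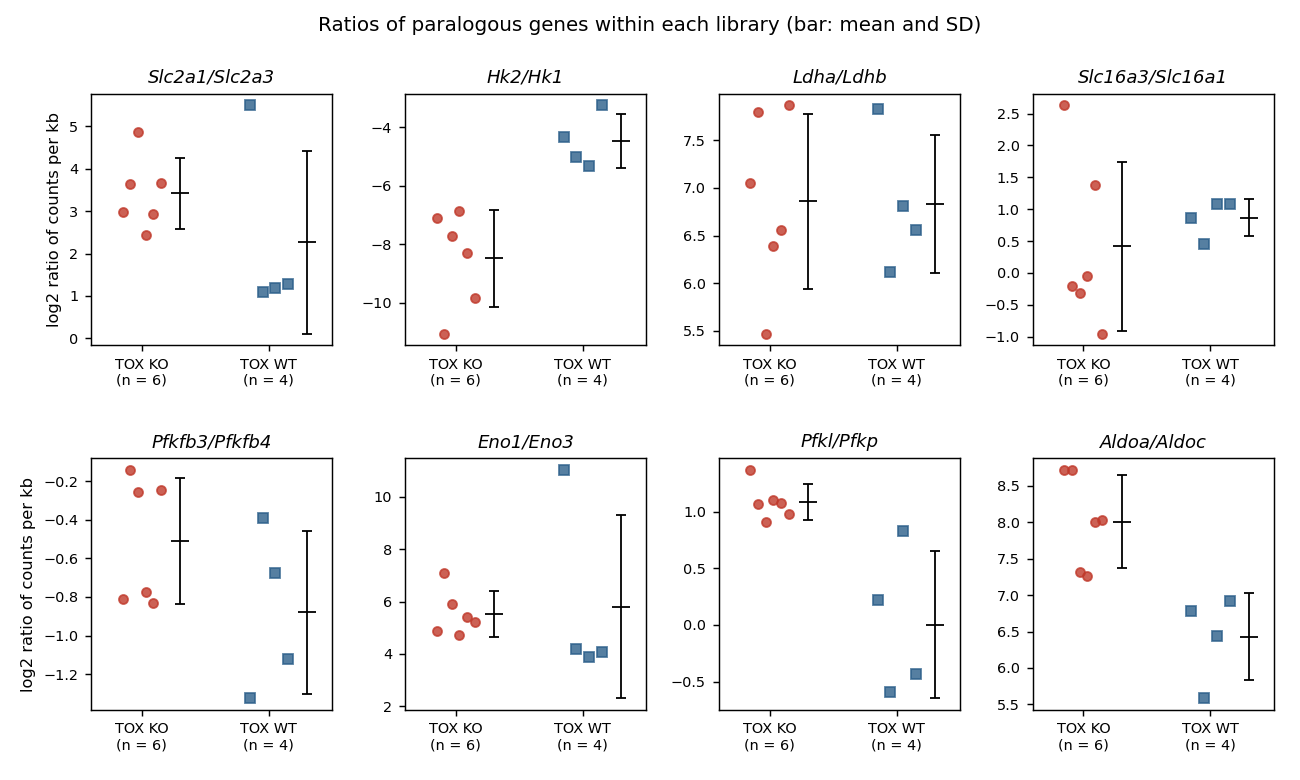
Log2 ratio of counts per kb for 8 pairs of related genes, 1 point per library, TOX KO (red circles, n = 6) left of TOX WT (blue squares, n = 4), with the mean and SD as a bar. The TOX KO points lie apart from the TOX WT points for Hk2/Hk1 (below), Pfkl/Pfkp (above) and Aldoa/Aldoc (above), and a single TOX WT library stands high for Slc2a1/Slc2a3 and Eno1/Eno3.

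The other genes of the pathway gave no call either. Of 34 further genes of glycolysis, gluconeogenesis and pyruvate use, 20 were tested and 0 passed, with 1 higher and 1 lower at an unadjusted p under 0.05 and a median log2 fold change of 0.15. The smallest p-values were those of Dld, the E3 subunit of pyruvate dehydrogenase (-1.53, SE 0.54, adjusted p = 0.176), and Pdk2, a pyruvate dehydrogenase kinase (2.77, SE 1.14, adjusted p = 0.238). Dld stood at 7.31 to 42.2 CPM in TOX KO, against 27.9, 89.2, 39.6 and 88.1 CPM in TOX WT replicates 1 to 4, and Pdk2 at 14.3 to 44.9 CPM in TOX KO, against 0.0242, 1.57, 13.8 and 2.20 CPM in TOX WT replicates 1 to 4. Pdk2 thus lay above the TOX WT libraries in every TOX KO library, and Dld overlapped. All 8 genes of the pentose phosphate pathway, which branches off at glucose 6-phosphate, were tested and 0 passed (1 higher and 1 lower at an unadjusted p under 0.05, median -0.14), with Taldo1 (-0.62, SE 0.22, adjusted p = 0.181) and H6pd (1.47, SE 0.61, adjusted p = 0.246) the nearest.

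Of 8 genes of the oxygen-sensing machinery around HIF-1, 7 were tested and 0 passed, also at an unadjusted p under 0.05 (median 0.17). Vhl, which targets HIF for destruction (1.31, SE 0.60, adjusted p = 0.287), and Egln2, a HIF prolyl hydroxylase (1.21, SE 0.56, adjusted p = 0.291), were the nearest. Of 14 known HIF-1 targets outside glycolysis, 12 were tested and 0 passed, with 2 lower and 0 higher at an unadjusted p under 0.05 and a median of -0.42. Bnip3, a mitophagy receptor, had a log2 fold change of -1.37 (SE 0.50, adjusted p = 0.185) and Ankrd37 one of -1.35 (SE 0.52, adjusted p = 0.209). Both were highest in TOX WT replicate 1, at 31.8 and 89.8 CPM, where the other TOX WT libraries held 10.3 to 17.4 CPM of Bnip3 and 16.4 to 21.5 CPM of Ankrd37.

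The counting limits what can be said of some members. Reads that match several places were not counted, so genes with near-identical copies, among them Gapdh, Pgk1, Ldha, Aldoa and Eno1, are undercounted to an unknown degree, and Eno1b, the copy of Eno1, held 2.93 to 8.03 CPM in TOX KO and 4.21 to 6.04 CPM in TOX WT. The counting set no strand, and 13 members share exonic bases with another gene, from 18 bases of Pfkm with Senp1 to 767 of Pkm.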

How the data were processed

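RNA of sorted cells went through SMART-seq V4 amplification and paired-end sequencing, per the labels' protocols. The authors deposited raw counts per gene, obtained from read pairs with featureCounts 1.6.2 on GENCODE M17 (GRCm38.p6) without a strand option and without reads that match several places, per the file headers. The submitters' processing notes also name STAR and FastQC, with no versions.

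Counts were fitted with edgeR 4.0.16 (R 4.3.3, TMM scaling, filterByExpr, quasi-likelihood test, genotype as the only term) over 14214 genes, with Benjamini-Hochberg adjustment and a threshold of 0.05. Fold changes are TOX KO minus TOX WT. CPM use TMM-scaled library sizes, and the SE is the absolute fold change divided by the root of F. Ratios used counts per kb of exon and were computed with numpy 2.4.6 and pandas 2.3.3. The edgeR procedure was run on simulated counts that held no library sets and no RNA of other cells. Changes were added there only to genes above a minimum level, and the ratio test was not included. Depth was 31939816 to 55784453 counts per library. A member at 0 was below detection in that library, and the zeros were not confined to shallow libraries. Hk3 was at 0 in TOX KO replicate 3, the deepest of all.

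Members, gene lists and alternatives were chosen with earlier results of these data known. Values of each TOX WT library, and the lowest, median and highest TOX KO value, were given, per role, for the gene with the smallest p and the gene with the highest level per length, and the other members more briefly or by ranges. From other lists the 2 genes with the smallest p were named. Alternatives were other scalings and filters, DESeq2 1.42.0, limma-voom (limma 3.58.1), blocks by replicate or library number, a term for library numbers 1 to 3 against 4 to 8 (the numbers in the library names), each of these sets alone, a threshold of 0.01 and leaving out each library. A permutation of the ratios within these sets was added after the data were seen.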

Additional observations from a re-analysis of the deposited data

Results flagged for a closer look

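In 6 of 80 groups of values (each member and each ratio within each genotype) the highest or lowest library stood far from the others, by a criterion that chance alone meets in about 5% of groups. Of the 6, 4 were in TOX WT replicate 1, the library with the fewest genes detected.

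Slc16a3, the lactate exporter MCT4, was 91.9 CPM in TOX KO replicate 1, where the other TOX KO libraries held 24.9 to 46.0 CPM. Eno2, neuronal enolase, was 1.34 CPM in TOX KO replicate 4 and 0 in the other TOX KO libraries. Aldoa, the main aldolase, was 3631 CPM in TOX WT replicate 1, where the other TOX WT libraries held 1272 to 1540 CPM. Pfkfb3 was 14.1 CPM in that library, below the 67.1 to 73.8 CPM of the other TOX WT libraries. The log2 ratio of Slc2a1 to Slc2a3 was 5.50 there, against 1.10 to 1.29 in the other TOX WT libraries. The log2 ratio of Eno1 to Eno3 was 11.03 there, against 3.89 to 4.18.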

How the results depend on the processing

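No member was higher in TOX KO under any of the 23 alternatives, while the number lower moved from 0 to 7. It was 7 with scaling to the T cell receptor complex genes, 3 with DESeq2, 1 each with DESeq2 size factors in edgeR, limma-voom, library numbers 4 to 8 alone (Eno3) and library numbers 1 to 3 alone (Tpi1), and 0 to 3 when single libraries were left out. The members' median log2 fold change was -0.88 with the T cell receptor scaling, -0.13 with limma-voom, -0.12 in library numbers 4 to 8 alone, and -0.41 to -0.14 without single libraries. Over all genes, the higher and lower calls were 61 and 384 in the fit reported, 613 and 999 with DESeq2, 204 and 680 with limma-voom, 17 and 1862 with the T cell receptor scaling, 443 and 1201 without TOX WT replicate 1, 10 and 143 without TOX WT replicate 4, and 7 and 121 at an adjusted p under 0.01.

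Of 734 member values under alternatives, 665 kept their direction and side of the threshold, 18 newly passed, and 51, in 21 members, changed sign without passing. With the T cell receptor scaling these were Slc2a1 -0.52, Hk1 -0.028, Pfkl -0.27, Pgam1 -0.12, Pkm -0.68, Slc16a1 -0.35, Hif1a -0.28, Mpc2 -0.063, Pdha1 -0.62 and Pdhb -0.71. In library numbers 1 to 3 alone, which hold TOX WT replicate 1 as the single TOX WT library, assumed to vary like the TOX KO ones, they were Slc2a3 2.71, Hk3 9.36, Pfkm 4.49, Pgam1 -0.52, Eno3 4.74, Pkm -0.36, Ldhb 0.64, Slc16a1 -1.23, Pfkfb3 0.90, Pfkfb4 0.055, Mpc2 -0.48 and Pdhb -0.29. In library numbers 4 to 8 alone they were Gpi1 0.0020, Aldoa 0.19, Ldha 0.081 and Slc16a3 0.33. They were Pfkm 0.26 and Slc16a3 0.071 with limma-voom, and Pkm -0.0023 with the library set as a term. Without single libraries, Aldoa ran from -0.44 to 0.19, Pkm from -0.0053 to 0.21, Ldha from -0.37 to 0.045, Ldhb from -0.32 to 0.26 and Slc16a3 from -0.58 to 0.62. The cause was not tested.

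Libraries of the 2 genotypes with the same replicate number deviated from their group means with correlations across genes of 0.40, -0.35, -0.35 and 0.33. These values cannot decide whether replicate numbers pair the libraries, because deviations also followed the sets of library numbers. The pairs with positive values lay within a set and those with negative values across the sets. With the replicate block, 0 of 14214 genes passed, 0 members passed, the members' median was -0.15, and Ldhb (0.019) and Slc16a3 (0.30) changed sign. With library number as the replicate block (shared numbers 2 and 6, correlations 0.47 and 0.17), 0 genes passed, the median was -0.086, and the changed signs were Slc2a3 0.36, Hk3 1.19, Pfkm 2.41, Pgam1 -0.47, Eno3 0.78, Pkm -0.091, Ldha 0.066, Ldhb 0.20, Slc16a1 -0.84, Pfkfb3 0.32, Mpc2 -0.55 and Pdhb -0.028.

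Without single libraries the log2 differences of the ratios ran from -4.33 to -3.49 for Hk2/Hk1, from 1.30 to 1.74 for Aldoa/Aldoc, from 0.76 to 2.23 for Slc2a1/Slc2a3, from -0.21 to 0.36 for Ldha/Ldhb and from -0.90 to 1.48 for Eno1/Eno3. In library numbers 4 to 8 alone, where 3 libraries a group cannot give an exact permutation p below 0.10, Hk2/Hk1 was -3.81, Pfkl/Pfkp 1.12, Aldoa/Aldoc 1.46 and Eno1/Eno3 1.06. With the genotype permuted within the library sets, an alternative chosen after the data were seen, the 3 ratio calls were lost, each in the same direction. The exact permutation test gave Hk2/Hk1 -3.98 (adjusted p = 0.0667), Pfkl/Pfkp 1.05 (0.05) and Aldoa/Aldoc 1.46 (0.05), and Ldha/Ldhb was -0.055. Its smallest possible p is 0.0125, which Pfkl/Pfkp and Aldoa/Aldoc had, so it left little room to call them.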
